A study of Mus musculus with 35 samples.

Results

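The 6 genes Akr1c18, Klrb1b, Gldn, Akap17b, Rnf24 and Gli2 were selected on their values in mouse liver after diethylnitrosamine (DEN), a carcinogen, which differed with little spread from those of untreated DEN control mice. They are 6 of 18820 genes with a probe set of their own. Each of the 6 is read by 1 probe set. The study hybridised liver RNA to 35 arrays (Affymetrix Mouse Gene 1.1 ST), and each value is a probe set level on the log2 scale, normalized by the authors with RMA. The DEN experiment holds 5 arrays of DEN control liver (untreated mice, described as matched for sex and age), 5 of non-tumorous liver (NTL) and 5 of tumor. The DEN mice had been injected with DEN at 10 mg per kg on day 15 of life and were examined at 9 months. The LT/MYC experiment holds 4 arrays of control liver from transgene-negative mice, which serve both models. Its LT arrays come from tg1223 mice, whose liver makes high levels of lymphotoxin alpha and beta (LTα and LTβ), observed up to 12 months, with 5 arrays of NTL and 3 of tumor. Its MYC arrays come from TRE-MYC mice crossed to LAP-tTA, a liver-specific driver. Doxycycline in the chow (200 mg per kg) kept MYC silent up to the age of 8 weeks, and there are 3 arrays of MYC NTL and 5 of MYC tumor. Tumors were dissected by eye, snap-frozen and checked by histology.

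Some features of the samples bear on what follows. By the mouse identifiers, the 5 DEN tumors come from 3 identifier stems and the 3 LT tumors from 2, and tumor and NTL arrays have no stem in common, so tissue and animal cannot be told apart. The identifiers of the MYC NTL mice begin with WT. The labels name no mouse strain. Xist, made from the inactive X chromosome of females, was above 9 on 9 of the 35 arrays, including all 3 LT tumors, 4 of 5 LT NTL, 1 of 4 LT/MYC controls and 1 of 5 DEN controls, but 0 of the 10 DEN NTL and tumor arrays. Albumin (Alb), the main product of hepatocytes, had group means between 13.67 and 13.76, and array medians lay between 5.59 and 5.73. The Alb means lay near the highest value on any array, 14.25, where measured differences may understate the true ones. These are bulk samples, so fewer cells of a type and less RNA per cell cannot be told apart.

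The 6 genes belong to different pathways. Akr1c18 encodes an aldo-keto reductase that inactivates progesterone and is best known from the ovary. Klrb1b encodes an inhibitory lectin-like receptor of natural killer (NK) cells whose ligand is Clec2d. Gldn encodes gliomedin, a protein of myelinating Schwann cells that binds Nrcam and neurofascin (Nfasc) and gathers sodium channels at the node of Ranvier. Akap17b is a member of the A-kinase anchoring proteins, which tether protein kinase A (PKA). Rnf24 encodes a membrane-bound RING finger protein reported to bind TRPC ion channels. Gli2 encodes a transcription factor of the hedgehog pathway, in which a ligand (Shh, Ihh or Dhh) binds Ptch1, releases Smo and so activates the Gli factors. In liver that pathway is known mainly from stellate and bile duct cells.

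The values fell into 2 patterns, and only the first is a stepwise one. Akr1c18, Klrb1b and Gldn were low in DEN control, higher in DEN NTL and highest in DEN tumor. Akap17b, Rnf24 and Gli2 were highest in DEN control, and in DEN NTL they lay at or near the levels of the LT and MYC livers. The choice of these genes rests on the DEN values, which are therefore given as a description with no test. Akr1c18, Klrb1b and Gldn lay near the low end of the scale in DEN control, and the table carries no detection call, so their differences from control are those measured and may understate the true ones.

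Akr1c18, the progesterone-inactivating enzyme, stood at 4.36, 4.01, 4.44, 4.23 and 4.22 in the 5 DEN controls. In DEN NTL it stood at 9.53, 9.77, 9.21, 9.92 and 9.41. In DEN tumors it stood at 11.85, 12.48, 12.51, 12.73 and 12.69. The 3 groups did not overlap, and the lowest NTL array lay 4.77 above the highest control. The mean was 4.25 ± 0.17 (SD, n = 5) in control, 9.57 ± 0.28 (SD, n = 5) in NTL and 12.45 ± 0.36 (SD, n = 5) in tumor, so NTL was 5.32 ± 0.15 (SE from both groups' SDs) above control on the log2 scale. Tumor was 2.88 ± 0.20 above NTL and 8.20 ± 0.18 above control.

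Klrb1b, the NK cell receptor, stood at 3.95, 3.83, 4.13, 4.01 and 4.36 in DEN controls. In DEN NTL it stood at 7.02, 7.37, 6.27, 7.16 and 6.36. In DEN tumors it stood at 9.08, 11.63, 10.16, 11.70 and 8.84. These groups did not overlap either, but the tumors spread widely, with an SD of 1.36 against 0.49 in NTL and 0.20 in control. Both tumors of stem DEN152 differed by 2.62 in Klrb1b, and those of stem DEN184 by 1.32, so tumors sharing a stem were unlike in this gene. The NTL mean was 2.78 ± 0.24 above control, and the tumor mean 3.45 ± 0.65 above NTL and 6.23 ± 0.61 above control.

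Gldn, gliomedin, stood at 4.10, 3.99, 4.23, 4.11 and 4.07 in DEN controls. In DEN NTL it stood at 5.96, 6.08, 5.46, 5.90 and 5.74. In DEN tumors it stood at 10.18, 10.79, 9.95, 10.51 and 10.11. The 3 groups did not overlap. NTL was 1.73 ± 0.11 above control, and tumor 4.48 ± 0.19 above NTL (22.3-fold). Tumors of one stem differed by 0.33 (DEN152) and 0.15 (DEN184) in Gldn. With arrays of a stem averaged first, the DEN tumor means over 3 stems were 12.46 for Akr1c18, 10.51 for Klrb1b and 10.39 for Gldn, all close to the means over arrays.

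**Figure D1:**
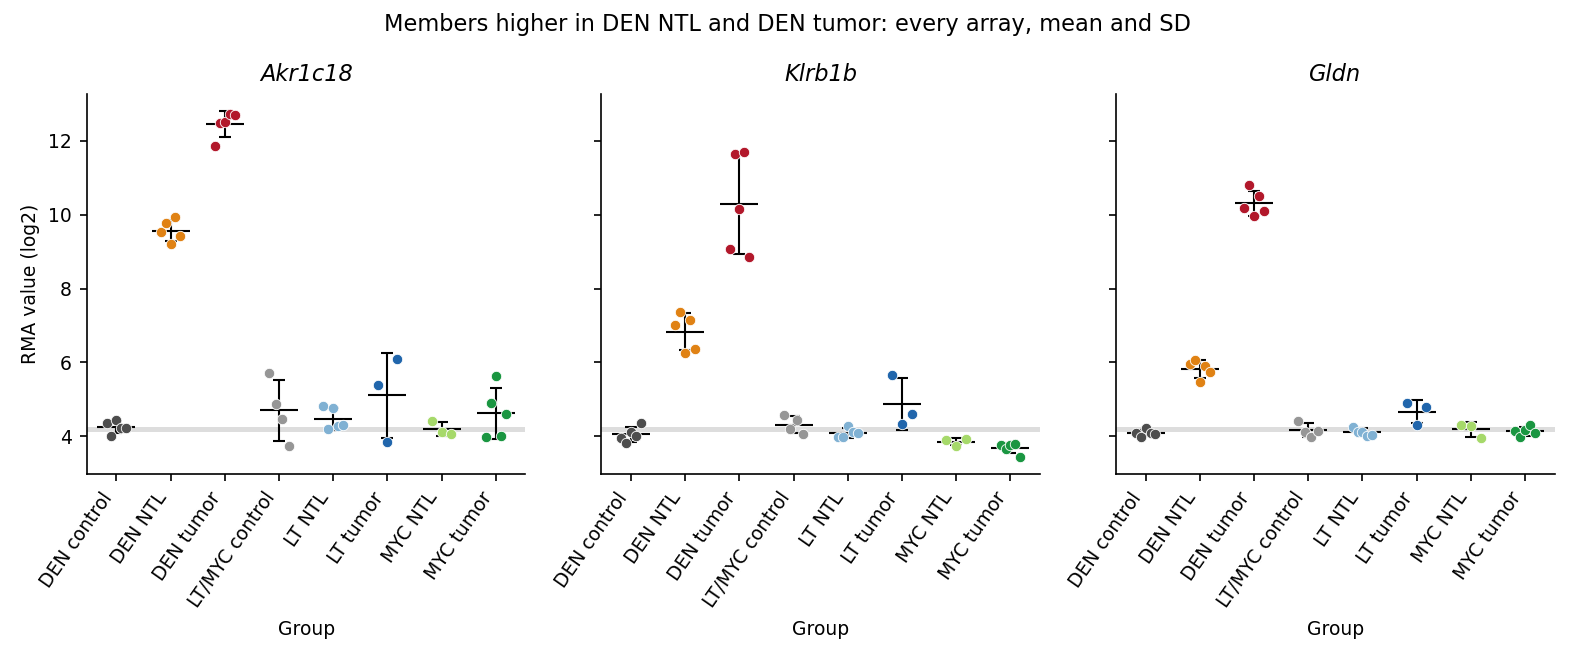
RMA value (log2, y axis) of Akr1c18, Klrb1b and Gldn on every array (points) of the 8 groups (x axis), with the group mean (long bar) and SD (whiskers); the gray band spans the first quartiles of the arrays, 4.13 to 4.24. DEN NTL lies above DEN control and below DEN tumor without overlap in each panel, and the 20 LT and MYC arrays lie below all DEN NTL arrays, at up to 6.10 for Akr1c18.

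In the LT and MYC livers these genes lay near the lower end of the arrays, whose first quartiles over all probe sets lay between 4.13 and 4.24. Akr1c18 had group means from 4.20 in MYC NTL to 5.11 in LT tumor, with single arrays up to 6.10. For Klrb1b the means ran from 3.69 in MYC tumor to 4.87 in LT tumor, and for Gldn from 4.12 in LT NTL to 4.67 in LT tumor. The lowest DEN NTL array lay 3.11 above the highest of the other 25 arrays for Akr1c18, 0.60 for Klrb1b and 0.56 for Gldn. Among the 8 groups, the neighbours in rank below DEN NTL overlapped in range for all 3 genes. Klrb1b and Gldn lay under their array's first quartile on 4 of 5 DEN controls each and Akr1c18 on 1, so their control levels are close to the low end of the scale.

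The pattern is uncommon over the genes measured. Only 9 of 18820 genes (0.0478%) had all 10 DEN NTL and tumor arrays above the other 25, and Akr1c18, Klrb1b and Gldn ranked 1, 2 and 3 of these by the gap. A step up with no overlap between the 3 DEN groups held for 112 genes (0.595%), of which Akr1c18 ranked 1, Klrb1b 2 and Gldn 4 by the smaller gap. By the measured size of the NTL difference from control, Akr1c18 ranked 1, Klrb1b 2 and Gldn 13 among all genes in that direction, and by that of the tumor difference they ranked 1, 2 and 3. All 6 genes had DEN NTL apart from control, where 2.21% of genes lay wholly above and 2.47% wholly below control. All 6 also had DEN tumor apart from control (10.1% of genes above, 10.8% below), and 4 had tumor apart from NTL, all 4 above it (10.7% of genes above, 11.7% below). These shares are background to a choice made on the same values.

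Promoter sequences of RefSeq (build GRCm38.p6) were matched for 6 of 6 genes, and 4 are shown here for comparison: those of the 3 genes that step up, and that of Akap17b, which holds the most matches. Each is the 250 bases before the transcript start, 5′ to 3′ on the gene's strand, and capitals mark the GC box (GGGCGG), the TATA motif (TATAA), the CCAAT box (CCAAT) and the AP-1 motif (TGANTCA) on either strand. Akr1c18 lies at chr13:4150647-4150896 (minus strand), Klrb1b at chr6:128826316-128826565 (minus strand, the first of 2 entries), Gldn at chr9:54286236-54286485 (plus strand) and Akap17b at chrX:36645415-36645664 (minus strand).
Akr1c18: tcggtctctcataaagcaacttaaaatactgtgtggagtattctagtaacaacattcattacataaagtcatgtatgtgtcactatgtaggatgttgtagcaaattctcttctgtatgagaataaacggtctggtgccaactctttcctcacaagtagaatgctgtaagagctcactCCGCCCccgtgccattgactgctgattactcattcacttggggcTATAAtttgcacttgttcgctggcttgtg
Klrb1b: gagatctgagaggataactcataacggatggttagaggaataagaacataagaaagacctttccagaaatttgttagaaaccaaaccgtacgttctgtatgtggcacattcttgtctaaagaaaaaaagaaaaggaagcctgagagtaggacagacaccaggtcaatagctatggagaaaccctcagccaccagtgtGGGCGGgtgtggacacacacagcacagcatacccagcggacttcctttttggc
Gldn: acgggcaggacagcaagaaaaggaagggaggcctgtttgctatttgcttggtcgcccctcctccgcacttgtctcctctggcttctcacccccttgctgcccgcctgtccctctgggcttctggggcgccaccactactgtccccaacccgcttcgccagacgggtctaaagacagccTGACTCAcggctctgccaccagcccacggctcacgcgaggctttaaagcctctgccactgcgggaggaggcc
Akap17b: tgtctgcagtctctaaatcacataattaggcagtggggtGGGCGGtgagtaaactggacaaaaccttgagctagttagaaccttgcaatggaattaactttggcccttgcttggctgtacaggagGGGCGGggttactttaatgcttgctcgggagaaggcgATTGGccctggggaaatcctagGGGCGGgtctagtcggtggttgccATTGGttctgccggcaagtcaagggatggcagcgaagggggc

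No motif searched was common to all 3 genes that step up. Akr1c18 had a TATA motif 29 bases before the start, and 22.8% of 32851 promoters held that motif somewhere in the window. A GC box was found once each in Akr1c18, Klrb1b, Rnf24 and Gli2 and 3 times in Akap17b, against 32.7% of promoters with at least 1. The AP-1 motif was found in Gldn alone of the 6 (6.75% of promoters), and the CCAAT box in Akap17b alone, 2 times (33.8%). Rnf24 had a TATA motif 177 bases before the start. The GLI motif GACCACCCA was in none of the 6 (0.225% of promoters), nor was the E-box CACGTG (6.02%) or the antioxidant response motif TGACNNNGC (10.2%). The xenobiotic response core GCGTG was in Gldn and Gli2 (28.2%). GC content ran from 41.6% in Akr1c18 and 45.2% in Klrb1b to 67.2% in Gli2, around a median of 52.4% for all promoters. Such matches are letters in a window and not measured sites.

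Akap17b, of the A-kinase anchoring family, stood at 7.63, 8.37, 8.16, 8.69 and 8.21 in DEN controls. In DEN NTL it stood at 5.70, 5.96, 5.93, 5.88 and 5.98. In DEN tumors it stood at 5.49, 6.37, 5.69, 5.73 and 5.26. DEN control lay wholly above both, while NTL and tumor overlapped. The NTL mean differed from control by -2.32 ± 0.18 (5.00-fold lower) and the tumor mean by -2.50 ± 0.25, and tumor differed from NTL by -0.18 ± 0.19.

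Rnf24, the membrane RING finger protein, stood at 9.19, 9.36, 9.43, 9.71 and 9.12 in DEN controls. In DEN NTL it stood at 7.02, 6.95, 6.85, 7.29 and 7.33. In DEN tumors it stood at 7.91, 8.31, 8.42, 8.67 and 8.08. Rnf24 was thus lowest in NTL and lay between NTL and control in tumor, with no overlap among the 3 groups. NTL differed from control by -2.28 ± 0.14 (4.85-fold lower), tumor from control by -1.09 ± 0.17, and tumor from NTL by 1.19 ± 0.16.

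Gli2, the hedgehog transcription factor, stood at 6.37, 6.83, 6.10, 7.29 and 7.44 in DEN controls. In DEN NTL it stood at 4.99, 4.68, 4.82, 4.97 and 4.98. In DEN tumors it stood at 5.12, 4.58, 4.70, 4.78 and 4.88. The controls spread more than the other DEN groups (SD 0.57 against 0.14 and 0.20) but did not overlap with them. NTL differed from control by -1.92 ± 0.26 (3.78-fold lower) and tumor by -1.99 ± 0.27, and tumor and NTL overlapped.

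**Figure D2:**
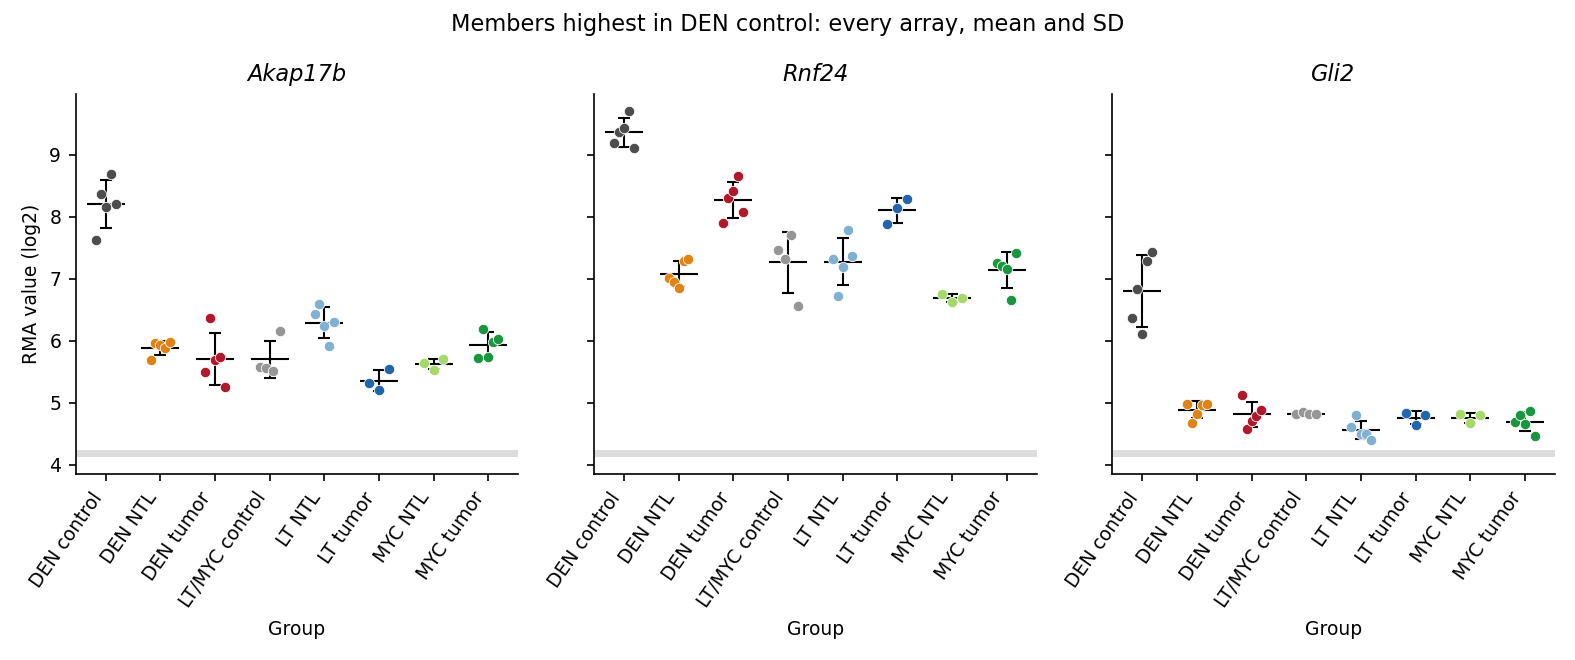
RMA value (log2, y axis) of Akap17b, Rnf24 and Gli2 on every array (points) of the 8 groups (x axis), with the group mean (long bar) and SD (whiskers); the gray band spans the first quartiles of the arrays. The 5 DEN controls lie above the other 30 arrays in each panel, by 1.03 for Akap17b, 0.45 for Rnf24 and 0.98 for Gli2.

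For these 3 genes the group that stood apart was DEN control, not the DEN-treated livers. DEN control exceeded LT/MYC control, also untreated liver, by 2.51 ± 0.23 in Akap17b, by 2.10 ± 0.27 in Rnf24 and by 1.98 ± 0.26 in Gli2, with no overlap. Over all genes, 513 of 18820 (2.73%) differed between these control groups by limma at an adjusted p under 0.05. H2-Ea, an MHC class II chain that some strains do not make, had means of 9.94 in DEN control and 4.60 in LT/MYC control. The control groups belong to different experiments, so group, experiment and genetic background cannot be told apart. DEN NTL, by contrast, differed from LT/MYC control by 0.19 ± 0.16 in Akap17b, -0.18 ± 0.26 in Rnf24 and 0.06 ± 0.06 in Gli2, with overlapping ranges. DEN control lay above all 30 other arrays for 15 genes (0.0797%), and Akap17b, Gli2 and Rnf24 ranked 1, 2 and 4 of them by the gap, with the nucleoside transporter Slc29a3 at 3. By the size of the NTL difference from control, Akap17b ranked 2, Rnf24 3 and Gli2 7 among genes in that direction, but by that of the tumor difference they ranked 57, 408 and 106. For Akr1c18, Klrb1b and Gldn the 2 control groups overlapped.

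The 8 groups could be ordered by their means. For Akap17b, LT NTL (6.29 ± 0.25, SD, n = 5) came next below DEN control, and from there to LT tumor (5.36 ± 0.18, SD, n = 3) each neighbour in the order overlapped with the next. For Rnf24 the order was DEN control, DEN tumor (8.28 ± 0.30, SD, n = 5), LT tumor (8.11 ± 0.20, SD, n = 3), LT NTL, LT/MYC control, MYC tumor, DEN NTL and MYC NTL (6.69 ± 0.07, SD, n = 3). DEN tumor and LT tumor overlapped in Rnf24, LT tumor lay wholly above LT NTL, and DEN NTL wholly above MYC NTL. For Gli2 the 7 groups below DEN control had means from 4.56 to 4.89, and each overlapped with the next.

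The LT and MYC comparisons were not used to choose the genes and were tested with limma, with p-values adjusted over 18820 genes and a call at an adjusted p under 0.05. Both models share the 4 LT/MYC controls. H2-Ea, an MHC class II chain that some strains do not make, was higher in MYC NTL than in these controls by 3.58 ± 0.39. In the MYC comparisons with control, model and genetic background therefore cannot be told apart. In LT tumor against LT NTL, 3 of 6 genes were called, against 20.4% of all genes. Akap17b fell by 0.94 ± 0.20 (SE, adjusted p = 0.00101 by limma), from arrays between 5.91 and 6.59 in NTL to 5.32, 5.21 and 5.55 in tumors. Rnf24 rose by 0.83 ± 0.21 (SE, adjusted p = 0.00573 by limma), from arrays between 6.72 and 7.79 to 7.89, 8.15 and 8.28. Gldn rose by 0.55 ± 0.15 (SE, adjusted p = 0.0087 by limma), from arrays between 4.00 and 4.27 to 4.91, 4.31 and 4.79. Groups did not overlap for these 3 genes, nor for Klrb1b, which was not called. The share of all genes with groups apart was not counted for the LT and MYC comparisons. Akr1c18 differed by 0.63 ± 0.38, Klrb1b by 0.78 ± 0.42 and Gli2 by 0.20 ± 0.18, none of them called. Leaving out LT tumor replicate 1 took Gldn to 0.43 (adjusted p = 0.114 by limma), and leaving out replicate 2 took Akr1c18 to 1.27 (adjusted p = 0.0166 by limma). With only LT tumor and LT NTL in the fit, Gldn and Rnf24 were no longer called (adjusted p = 0.0628 and 0.0676 by limma). Cell type markers moved in the same comparison: 9 of 23 NK and T cell markers, 8 of 15 stellate and mesenchymal markers and 4 of 7 B cell markers rose, and 0 of these fell. Other lists moved both ways: of 10 endothelial markers 3 rose and 3 fell, and of 10 Kupffer cell markers 2 rose and 2 fell. Acta2 rose by 2.57 ± 0.53 (adjusted p = 0.000818 by limma), Ms4a1 of B cells by 1.35 ± 0.29 (0.00108) and Ccl5 by 1.32 ± 0.39 (0.0154). The summed level of the NK and T cell markers was 9.39 to 9.91 in LT NTL and 10.00 to 10.71 in LT tumor. That of the stellate markers was 12.96 to 13.14 and 13.04 to 14.48, and that of the B cell markers 8.04 to 8.55 and 8.26 to 9.64. The mean of 7 NK and T cell markers in LT NTL and of 3 in LT tumor lay below the first quartile of the arrays. Their part in the values of Gldn, Akap17b and Rnf24 was not tested.

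In LT tumor against LT/MYC control, 2 of 6 genes were called, against 16.5% of all genes. Rnf24 rose by 0.84 ± 0.22 (SE, adjusted p = 0.01 by limma), with tumors wholly above controls, which ran from 6.57 to 7.71. Gldn rose by 0.50 ± 0.16 (SE, adjusted p = 0.0282 by limma), with overlapping ranges. In that comparison 5 of 23 NK and T cell, 8 of 15 stellate and 3 of 7 B cell markers rose, and 0 of these fell. Of 10 endothelial markers 3 rose and 3 fell, and of 10 Kupffer cell markers 1 rose and 2 fell. With a term for high Xist the calls of Rnf24 and Gldn were both lost (adjusted p = 0.209 and 0.0895 by limma). They were also lost with only LT tumor and control in the fit (0.178 and 0.193 by limma). Rnf24 was also lost without LT/MYC control replicate 4, at 0.61 (adjusted p = 0.0517 by limma). Gldn was lost without LT/MYC control replicate 2, 3 or 4 or without LT tumor replicate 1 or 3, at changes of 0.48, 0.43, 0.49, 0.38 and 0.44.

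No gene of the 6 was called in the other 4 comparisons by limma. In LT NTL against control (2.41% of all genes called), 1 of 6 had an unadjusted p under 0.05, as had 15.6% of all genes: Akap17b, at 0.59 ± 0.18 (adjusted p = 0.0747 by limma). Without LT/MYC control replicate 4, the array with the highest Akap17b of its group, that change was 0.74 (adjusted p = 0.0289 by limma), and without LT NTL replicate 4 it was 0.69 (0.0448). In MYC NTL against control (3.83% called), the 1 gene with an unadjusted p under 0.05, as against 16.4% of all genes, was Rnf24, at -0.57 ± 0.22 (adjusted p = 0.157 by limma), and without LT/MYC control replicate 4 it was -0.81 (0.0245). In MYC tumor against control (20.5% called), 0 of 6 had an unadjusted p under 0.05, against 32.1% of all genes. With only these 2 groups in the fit Klrb1b was called at -0.64 (adjusted p = 0.0055 by limma). Klrb1b lay below its array's first quartile on 5 of 5 MYC tumors and 2 of 4 controls, so that difference lies at the low end of the scale. In MYC tumor against MYC NTL (21.8% called), 1 of 6 had an unadjusted p under 0.05, against 33.4% of all genes. That gene was Rnf24, at 0.46 ± 0.21 (adjusted p = 0.128 by limma). With limma's trended and robust moderation the counts called were also 0 in these 4 comparisons.

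The tumor changes of the LT and MYC models were compared directly. For Akap17b the tumor change from NTL was -0.94 in LT and 0.31 in MYC, a difference of -1.24 ± 0.28 (SE, adjusted p = 0.00393 by limma). Akap17b was also higher in LT NTL than in MYC NTL, by 0.67 ± 0.20 (SE, adjusted p = 0.0306 by limma), with no overlap. Akap17b lies on the X chromosome, and Xist was above 9 on 4 of 5 LT NTL and 0 of 3 MYC NTL arrays. H2-Ea had means of 4.41 in LT NTL and 8.18 in MYC NTL. Model, sex and genetic background can therefore not be told apart here. Comparisons between the models were run in the main fit alone, without the alternatives used elsewhere. For the other 5 genes the difference of tumor changes was not called; Gldn came nearest, at 0.60 ± 0.21 (adjusted p = 0.0592 by limma).

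**Figure D3:**
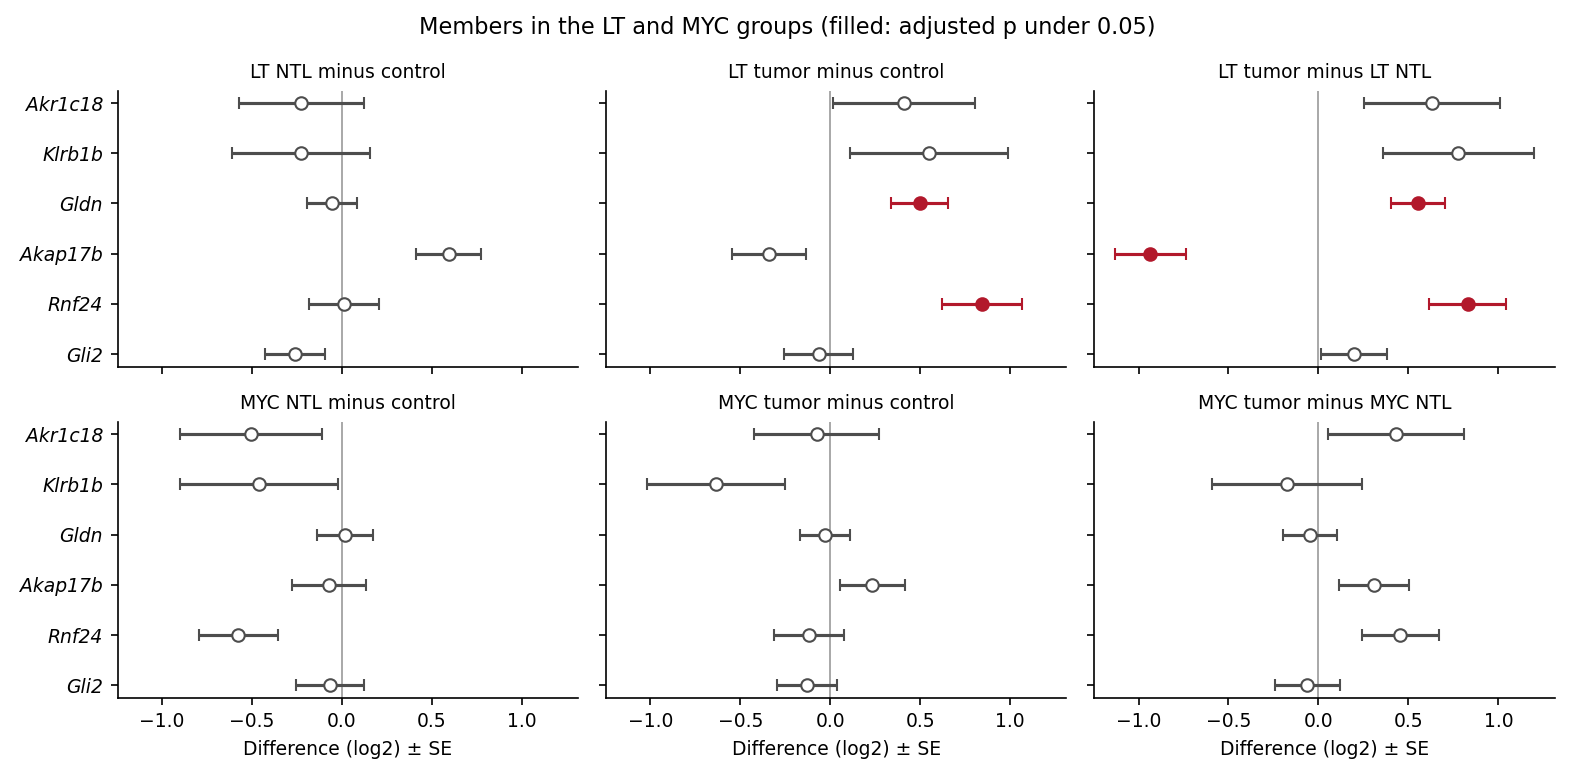
Difference between groups (log2, x axis) with its SE for the 6 genes (y axis) in the 6 LT and MYC comparisons; filled red points have an adjusted p under 0.05 by limma. Called points are Gldn, Akap17b and Rnf24 in LT tumor against LT NTL, and Gldn and Rnf24 in LT tumor against control.

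Genes of the same pathways were read next. Of 87 genes in 7 pathway lists, 0 were called in DEN NTL against DEN control by limma, and 0 by its trended and robust version, where 0.197% of all genes were called (0.0691% higher and 0.128% lower). An unadjusted p under 0.05 was found for 9 of the 87, a share near the 9.55% of all genes. In DEN tumor against control, where 30.7% of all genes were called (15% higher and 15.6% lower), 12 of the 87 rose and 18 fell.

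Around Akr1c18, the list of other AKR1C and steroid-metabolizing enzymes leaned to lower values in tumors: of 20 measured, 1 rose and 9 fell in DEN tumor against control, with a median change of -0.41 against -0.03 for all genes. Hsd3b5, a male-biased liver hydroxysteroid dehydrogenase, fell by 4.09 ± 1.19 (adjusted p = 0.00803 by limma). Akr1d1, the reductase of bile acid and steroid synthesis, fell by 2.02 ± 0.22 (adjusted p = 1.9e-08 by limma). Akr1c19 fell by 1.90 ± 0.22 (adjusted p = 6.5e-08 by limma). The Akr1c genes lie together on chromosome 13, and near-identical paralogs can share probes. On either side of Akr1c18, Akr1c14 stood at 0.003 ± 0.193 and Akr1c13 at -0.10 ± 0.14 in DEN NTL against control, neither called, and Akr1c14 fell by 0.94 ± 0.19 in tumor (adjusted p = 0.000307 by limma).

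Around Klrb1b, 9 other Klrb1 receptors and Clec2 ligands were measured. In DEN tumor against control 1 rose and 2 fell, where 30.7% of all genes were called. Clec2d, the ligand of Klrb1b, fell by 0.54 ± 0.21 (adjusted p = 0.0454 by limma), Clec2i by 0.39 ± 0.12 (0.0143), and Klrb1 rose by 0.22 ± 0.08 (0.0278). Without DEN control replicate 3 the list's count was 0, and without replicate 4 it was 1. Klrb1c, next to Klrb1b on chromosome 6 and the receptor known as NK1.1, was between 3.63 and 3.85 in the means of the 3 DEN groups, with differences of -0.18 ± 0.13 (NTL) and 0.04 ± 0.13 (tumor) from control, not called. Its means lay below the first quartile of every array, where a change may not be seen.

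Markers of NK and T cells, the cells that Klrb1b is known from, were measured beside it. Of 23 measured, 0 were called in DEN NTL against control (4 with an unadjusted p under 0.05, and 0 by the trended and robust version). In DEN tumor against control 1 rose and 5 fell, where 15% of all genes were called higher and 15.6% lower. Cd3e, a subunit of the T cell receptor complex, fell by 1.03 ± 0.22 (adjusted p = 0.000376 by limma), Il2rb by 0.74 ± 0.21 (0.00775) and granzyme B (Gzmb) by 0.72 ± 0.24 (0.021). The 1 marker that rose was perforin (Prf1), by 0.71 ± 0.18 (adjusted p = 0.0027 by limma). The summed level of the 23 markers was 9.86 to 10.41 in DEN control, 9.73 to 10.97 in NTL and 9.42 to 9.94 in tumor, on the log2 scale. The means of 8 markers in control, 8 in NTL and 7 in tumor lay below the first quartile of the arrays. Ncr1, a defining receptor of NK cells, had means of 3.82, 3.92 and 3.86 in the 3 DEN groups. These lay below the first quartile of every array, so a change in NK cells cannot be read from Ncr1.

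Around Gldn, 11 binding partners and genes of the node of Ranvier were measured. In DEN tumor against control 2 rose and 0 fell, where 30.7% of all genes were called. Scn8a, a voltage-gated sodium channel of the node, rose by 2.83 ± 0.29 (adjusted p = 6.32e-09 by limma), from a control mean of 4.21, with means of 4.53 in NTL and 7.04 in tumor. Ank3, an ankyrin of the node, rose by 0.54 ± 0.19 (adjusted p = 0.0256 by limma). Without DEN control replicate 3 the count was 1, as it was with only these 2 groups in the fit. Nrcam and Nfasc, the receptors that gliomedin binds, changed by 0.003 ± 0.064 and 0.25 ± 0.10, not called. Of 6 Schwann cell markers, 0 were called in DEN NTL against control (1 with an unadjusted p under 0.05; 0 by the trended and robust version). In tumor against control Egr2 rose by 0.71 ± 0.19 (adjusted p = 0.00512 by limma) and Cdh19 fell by 1.29 ± 0.39 (0.0103). Their summed level was 8.51 to 8.96 in control, 8.90 to 9.21 in NTL and 8.49 to 8.99 in tumor. Sox10, which defines the lineage, had means of 5.09, 5.43 and 5.05.

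Around Akap17b, 2 of 19 PKA anchors and subunits rose and 4 fell in DEN tumor against control, where 30.7% of all genes were called. Akap12 rose by 1.26 ± 0.28 (adjusted p = 0.000693 by limma), while Prkar2a, a regulatory subunit, fell by 0.74 ± 0.15 (0.000186) and Akap1, the mitochondrial anchor, by 0.63 ± 0.11 (5.75e-05). In LT tumor against LT NTL, the comparison in which Akap17b fell, 2 of these 19 genes rose and 2 fell, where 20.4% of all genes were called. Those that rose were the regulatory subunits Prkar2b, by 0.77 ± 0.18 (adjusted p = 0.00263 by limma), and Prkar1b, by 0.47 ± 0.10 (0.000941). For Rnf24, its paralog Rnf122 rose by 0.77 ± 0.15 in DEN tumor against control (adjusted p = 0.000133 by limma), and of the 5 TRPC channels measured none was called in that comparison.

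In the hedgehog pathway, 0 of 22 genes were called in DEN NTL against control (2 with an unadjusted p under 0.05; 0 by the trended and robust version), and 1 ligand or receptor was without DEN control replicate 1, as was 1 transducer or target with only these 2 groups in the fit. In DEN tumor against control 5 of the 22 rose and 3 fell, where 30.7% of all genes were called. Of 10 ligands and receptors 2 rose and 2 fell. Smo, the signal transducer of the membrane, rose by 1.59 ± 0.23 (adjusted p = 3.66e-06 by limma). The coreceptor Gas1 fell by 1.70 ± 0.26 (6.01e-06), and the ligand-binding inhibitor Hhip fell by 1.54 ± 0.21 (1.02e-06). Of 12 transducers and targets, 3 rose and 1 fell, with Bcl2 higher by 1.04 ± 0.18 (adjusted p = 4.3e-05 by limma), Mycn by 0.83 ± 0.19 (0.000871) and Foxf1 lower by 1.00 ± 0.20 (0.000239). Gli1 and Ptch1, the best known targets, were named after their values were seen. Gli1 differed from control by 0.005 ± 0.069 in NTL and -0.07 ± 0.07 in tumor, and Ptch1 by -0.36 ± 0.11 and 0.23 ± 0.11, none of them called. Gas1 and Hhip also fell in LT tumor and in MYC tumor against their NTL, with changes of -1.17 ± 0.30 and -1.38 ± 0.24 in LT (adjusted p = 0.00565 and 0.000204 by limma) and of -1.43 ± 0.30 and -1.82 ± 0.24 in MYC (0.00081 and 3.12e-06).

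**Figure D4:**
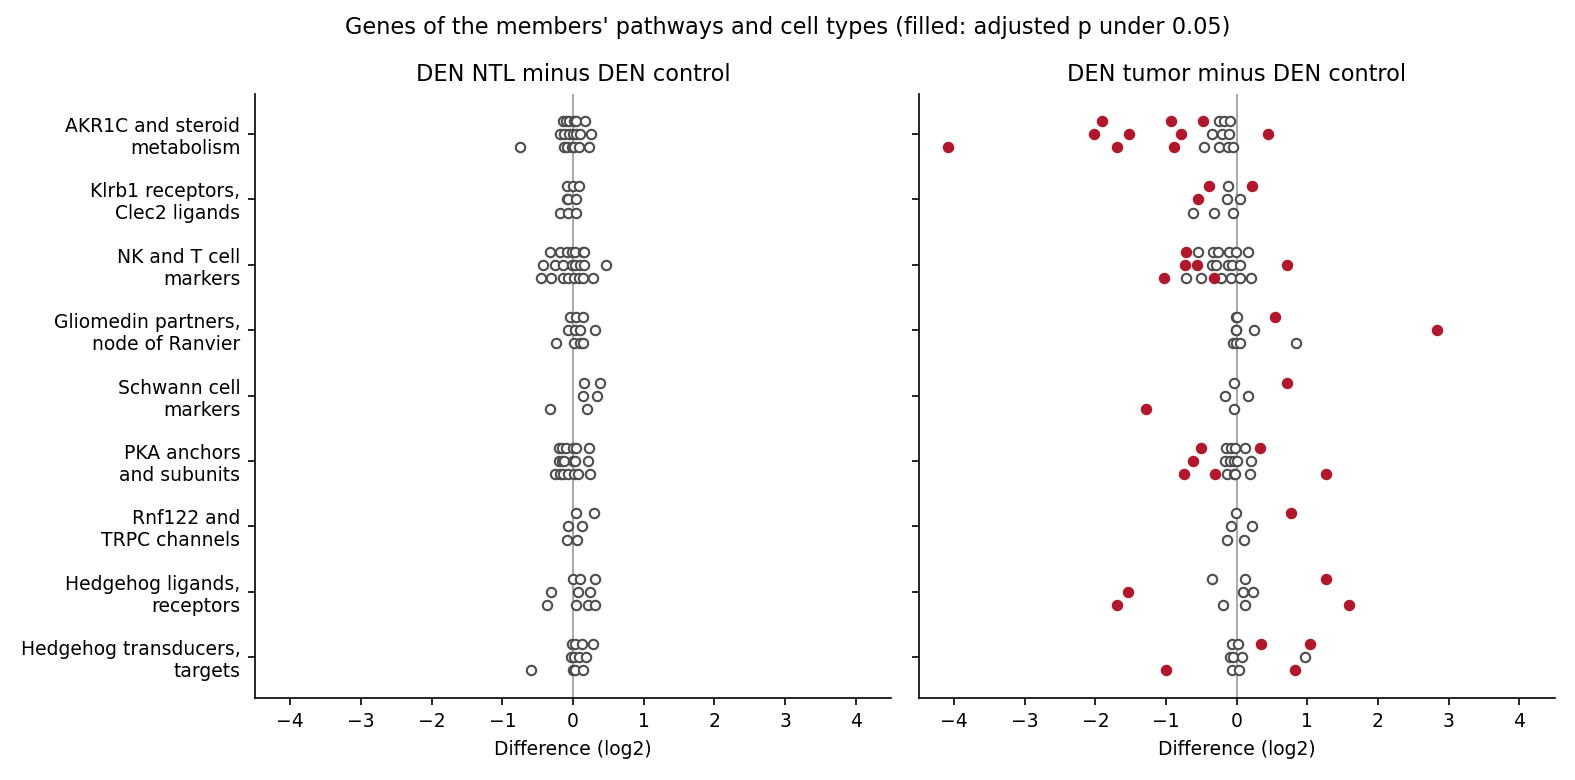
Difference from DEN control (log2, x axis) of each measured gene of 9 lists (y axis) in DEN NTL (left) and DEN tumor (right); filled red points have an adjusted p under 0.05 by limma. No listed gene is filled on the left, and the steroid list leans to lower values on the right, with 9 of 20 called lower.

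Other cell types were read from marker lists. In DEN NTL against control, 0 of 90 cell type markers were called (0 by the trended and robust version), against 0.197% of all genes, and 7 had an unadjusted p under 0.05, against 9.55% of all genes. In DEN tumor against control (15% of all genes called higher, 15.6% lower), 9 of 10 Kupffer cell markers fell and 5 of 8 bile duct cell markers rose. The bile duct count was 3 without DEN control replicate 1, 4 or 5 or DEN tumor replicate 1. Cd163 of Kupffer cells fell by 2.81 ± 0.37 (adjusted p = 4.88e-07 by limma), and their summed level was 12.69 to 13.11 in control, 13.00 to 13.58 in NTL and 10.81 to 12.34 in tumor. Prom1 rose by 4.05 ± 0.44 (adjusted p = 2.13e-08 by limma) and Sox9 by 2.45 ± 0.24 (2.01e-09), and the summed level of the bile duct markers was 8.27 to 8.64 in control, 8.51 to 8.81 in NTL and 10.31 to 10.86 in tumor. Of 15 stellate and mesenchymal markers 5 rose and 4 fell, with Acta2 higher by 1.83 ± 0.46 (adjusted p = 0.00221 by limma) and Lrat, of quiescent stellate cells, changed by -1.08 ± 0.29 (0.00469). Of 10 endothelial markers 5 rose and 1 fell, with Emcn higher by 1.97 ± 0.27 (adjusted p = 8.1e-07 by limma). Of 11 hepatocyte markers 3 rose and 1 fell (2 in all with only these 2 groups in the fit), with changes of 0.27 ± 0.05 in Apoa1 and -0.24 ± 0.06 in Apoa2. Of 7 B cell markers 0 were called, and 2 were with only these 2 groups in the fit. The part of these cell types in the tumor values of the 6 genes was not tested.

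The genes beside each of the 6 on its chromosome, 5 tested genes on either side, were compared in the same way. Of these 60 neighbours, 0 were called in DEN NTL against control by limma (0 by the trended and robust version), against 0.197% of all genes. An unadjusted p under 0.05 was found for 5, a share near the 9.55% of all genes, and the median difference was 0.004. In DEN tumor against control 12 rose and 9 fell, against 15% and 15.6% of all genes. The largest share was beside Gli2 on chromosome 1, where 6 of 10 rose in tumor, Inhbb by 2.40 ± 0.35 (adjusted p = 3.13e-06 by limma), while Gli2 itself was low there. Smox, a polyamine oxidase next to Rnf24 on chromosome 2, rose by 2.44 ± 0.19 (adjusted p = 3.27e-11 by limma), and Mir103-2 on the other side differed by 0.08 ± 0.15. Pgrmc1, next to Akap17b on the X chromosome, fell by 0.55 ± 0.10 (adjusted p = 4.88e-05 by limma), and Slc25a43 differed by -0.16 ± 0.11. Beside Gldn on chromosome 9, Tnfaip8l3 differed by -0.20 ± 0.17 and Dmxl2 by -0.91 ± 0.37, and beside Gli2 Tfcp2l1 by -0.07 ± 0.15, not called.

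**Figure D5:**
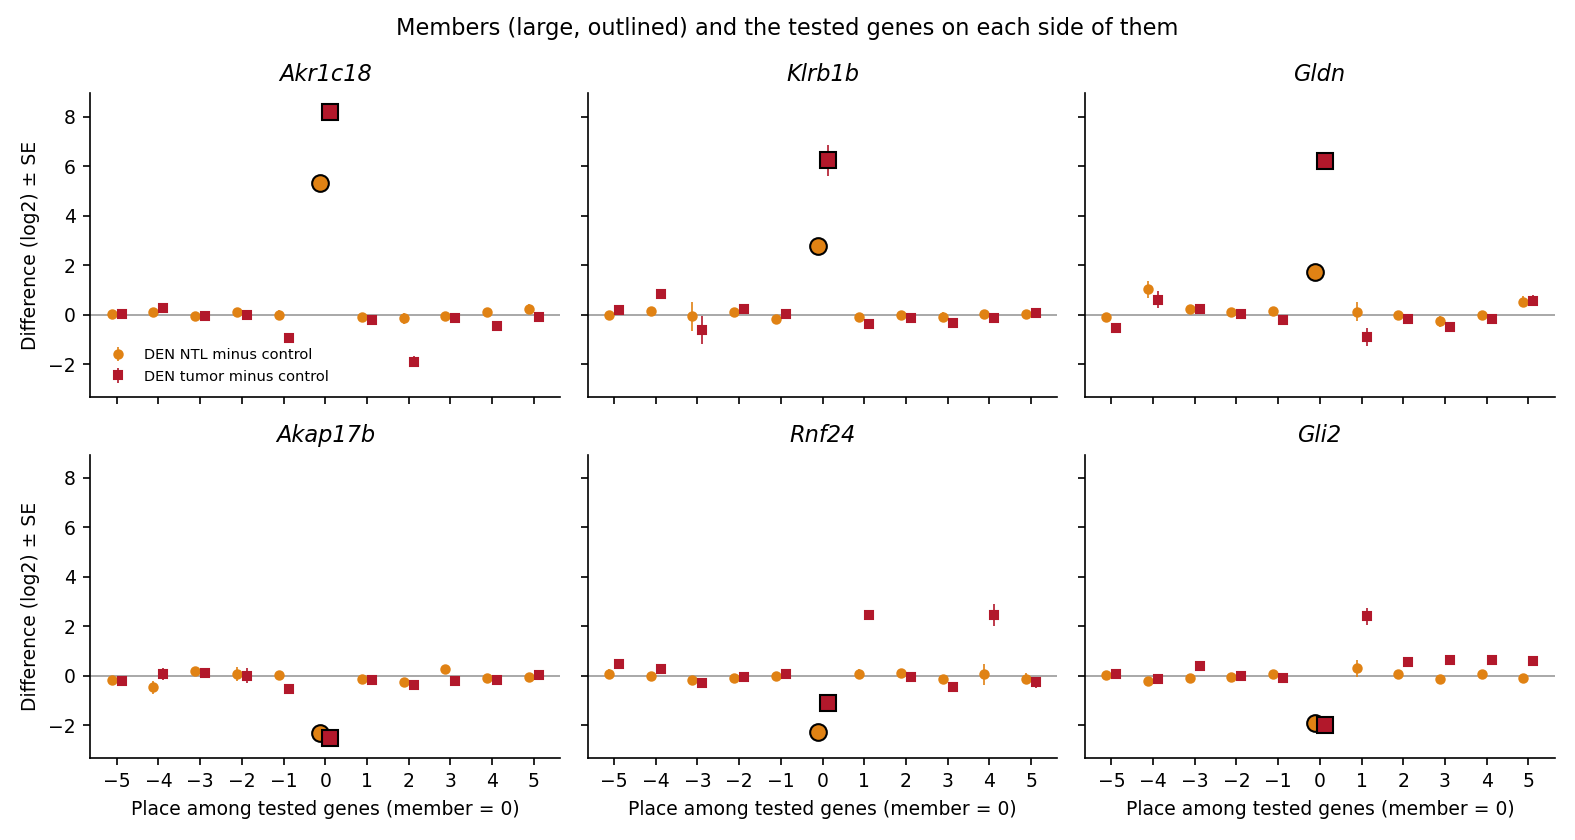
Difference from DEN control (log2, y axis) with its SE for DEN NTL (circles) and DEN tumor (squares); large outlined symbols are the 6 genes and small ones the 5 tested genes on either side in chromosomal order (x axis). In DEN NTL the neighbours lie between -0.47 and 1.02 (median 0.004), while the 6 genes lie between -2.32 and 5.32.

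Because strains are not named, genes known to differ between inbred mouse strains were read as a group. H2-Ea, an MHC class II chain that some strains do not make, was high in all DEN groups, with means of 9.94 ± 0.37 (SD, n = 5) in control, 9.19 ± 1.07 (SD, n = 5) in NTL and 9.75 ± 0.48 (SD, n = 5) in tumor. H2-Ea was also high in MYC NTL (8.18 ± 0.43, SD, n = 3) and MYC tumor (9.32 ± 0.34, SD, n = 5), but low in LT/MYC control (4.60 ± 0.19, SD, n = 4), LT NTL (4.41 ± 0.28, SD, n = 5) and LT tumor (4.37 ± 0.46, SD, n = 3). MYC NTL exceeded LT/MYC control by 3.58 ± 0.39 in H2-Ea (adjusted p = 5.74e-07 by limma) and by 1.02 ± 0.24 in Ifi202b (0.0124), an interferon-inducible gene. Of the 7 strain-linked genes measured, 0 were called between DEN NTL and DEN control (1 with an unadjusted p under 0.05; 0 by the trended and robust version), and 1 in DEN tumor against control: Glo1, a glyoxalase, fell by 1.04 ± 0.14 (adjusted p = 8.09e-07 by limma). Under several alternatives, leaving out DEN control replicate 1 or 3 or DEN tumor replicate 1 or 2 among them, 2 were called. Of the other listed genes, Nnt had means of 10.73 in DEN control, 10.63 in NTL and 10.66 in tumor. Hc had means of 11.99, 11.98 and 12.27 in the same order, Pla2g2a 4.34, 4.53 and 4.53, and Apobec3 6.24, 6.38 and 6.94. The part of genetic background in the differences of the 6 genes was not tested.

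The genes most like each of the 6 over all 35 arrays are given as a description. Since the 6 were chosen for their DEN values, which dominate these coefficients, a high coefficient among them restates that choice, and a difference of a like gene between DEN groups follows from how it was picked and gets no test. For Akr1c18, Pearson's r was 0.952 with Klrb1b, 0.932 with Gldn and 0.878 with Csn3, the milk protein kappa-casein, and lowest with Rdh14 at -0.853. Klrb1b had an r of 0.965 with Gldn and 0.943 with Tmem54, and its lowest was Pus10 at -0.898. Gldn had an r of 0.97 with Tmem54 and 0.968 with Hid1, and its lowest was Gatb at -0.927. Once each group's mean was taken away, r over the same 35 arrays was 0.664 between Klrb1b and Gldn, 0.422 between Akr1c18 and Gldn and 0.275 between Akr1c18 and Klrb1b, lower than over the arrays as they are. Csn3 was listed at means of 3.01 in DEN control, 5.06 in NTL and 8.71 in tumor, and its tumors ran from 4.20 to 10.23. Tmem54 was above DEN control by 5.01 ± 0.31 in tumor and 0.88 ± 0.31 in NTL, and Hid1 by 3.48 ± 0.19 and 0.46 ± 0.19.

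Slc29a3 was among the 3 most like genes of Akap17b, Rnf24 and Gli2 alike. Akap17b had an r of 0.87 with Gli2, 0.84 with Slc29a3 and 0.812 with Trappc13, a subunit of a vesicle-tethering complex, and lowest with Cltc at -0.688. Spearman's rho for Akap17b was 0.122 with Gli2, 0.158 with Slc29a3 and 0.872 with Trappc13. Rnf24 had an r of 0.829 with Hhipl2, 0.799 with Slc29a3 and 0.746 with Cxcr2, a chemokine receptor of neutrophils, and lowest with Elmod2 at -0.673. Gli2 had an r of 0.906 with Slc29a3 and 0.871 with Unc5c, a netrin receptor, and lowest with Vnn1 at -0.744. In DEN NTL against control, Slc29a3 differed by -1.55 ± 0.15, Hhipl2 by -1.65 ± 0.22 and Unc5c by -1.62 ± 0.32. Hhipl2 differed by 0.81 ± 0.22 between tumor and NTL, in the same direction as Rnf24. Unc5c varied widely among DEN controls, from 4.97 to 8.04, against 4.74 to 5.01 in NTL. Between the 2 sets the coefficients were small: r ran from -0.308, for Akr1c18 with Akap17b, to 0.201, for Gldn with Rnf24.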

How the data were processed

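The deposited table holds log2 values of 35556 probe sets, made by the authors with RMA, per the submitters' processing notes; no version of it is given. A single gene symbol belonged to 21218 of them, several symbols to 1881 and no symbol to 12457, and the brightest single-symbol probe set stood for each of 18820 genes. Arrays carry no depth in reads; precision is limited by their number. The fit was limma 3.58.1 (R 4.3.3) on all 35 arrays (a mean per group, eBayes, Benjamini-Hochberg adjustment, call at an adjusted p under 0.05), which was tested on simulated data. DEN values of the 6 genes are described without a test. Tumor arrays that share an identifier stem count as separate samples in this fit, so p-values measure the spread between these samples, part of which may lie within 1 animal.

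The 6 genes and the 17 gene lists were chosen with earlier results of these data known. The text names the 6 genes, the 3 most and 1 least correlated gene for each, the nearest neighbours, the strain-linked genes, Alb and Xist, and up to 3 called genes per list in each DEN comparison and up to 2 in the others. Ncr1, Prf1, Sox10, Nrcam, Nfasc, Gli1 and Ptch1 were added after their values were seen. Neighbours and promoters come from RefSeq tables of GRCm38.p6. Alternatives were a fit on the compared groups alone, a replicate block, averaged or random identifier stems, median centring, averaged probe sets, a filter on dim genes, trended and robust moderation, a term for high Xist, and leaving out each array. The direct comparisons of the LT and MYC models were not run under them.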

Additional observations from a re-analysis of the deposited data

Results flagged for a closer look

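A far array was looked for in 36 sets, each holding 1 of the 6 genes in 1 group of 4 or more arrays. Of these sets 2 stood out, where chance gives about 1 in 20. Sets of the same group share their arrays. Akr1c18 in DEN tumor replicate 1 was 11.85, below the 12.48 to 12.73 of the other 4 tumors; it still lay above all DEN NTL arrays. Akap17b in LT/MYC control replicate 4 was 6.15, above the 5.51 to 5.59 of the other 3 controls, and without it Akap17b was called in LT NTL against control. The tumor change of Akap17b differed between the LT and MYC models by -1.24 (adjusted p = 0.00393 by limma), as a tested difference of the 2 changes.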

How the results depend on the processing

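The counts of genes with DEN groups apart (6, 6 and 4) were the same under the alternatives run. They were 6 to 6, 6 to 6 and 4 to 4 when 1 array was left out. Leaving out an array or averaging stems cannot make groups that lie apart overlap. Averaging probe sets changes no value of these genes, each with 1 probe set. Under these settings the counts could therefore not fall, and nothing follows from their staying the same. The replicate numbers do not pair the arrays: deviations of same-numbered arrays of different groups had a median r of 0.008 over 109 pairs, and with the replicate block the called counts stayed at 0 (LT NTL against control), 2 (LT tumor against control), 3 (LT tumor against LT NTL) and 0 in the 3 MYC comparisons. LT tumor against control gave 0 calls with only the compared groups in the fit and 0 with the Xist term, against 2; LT tumor against LT NTL gave 1 with only those groups, against 3; MYC tumor against control gave 1 with only those groups, against 0. Leaving out 1 array, called counts ran from 0 to 1 (LT NTL against control), 0 to 2 (LT tumor against control), 2 to 4 (LT tumor against LT NTL), 0 to 1 (MYC NTL against control), and 0 to 0 in both MYC tumor comparisons. Signs turned for uncalled changes alone. With the Xist term these were Rnf24 in LT NTL against control (-0.237) and Gli2 in LT tumor against control (0.238). Leaving out 1 array, LT NTL against control ran from -0.543 to 0.111 (Akr1c18), -0.118 to 0.028 (Gldn) and -0.219 to 0.162 (Rnf24); LT tumor against control from -0.085 to 1.043 (Akr1c18). MYC NTL against control ran from -0.049 to 0.133 (Gldn) and -0.139 to 0.077 (Akap17b), MYC tumor against control from -0.392 to 0.262 (Akr1c18), -0.093 to 0.053 (Gldn) and -0.351 to 0.03 (Rnf24), and MYC tumor against MYC NTL from -0.162 to 0.019 (Gldn). Over all genes, DEN NTL against control gave 37 calls, 183 with only those groups in the fit (110 of them higher, against 13) and 74 with stems averaged (35 higher); LT tumor against control gave 3107, but 0 with only those groups, 1616 with stems averaged, 1273 with the Xist term and 1032 without LT tumor replicate 1; LT tumor against LT NTL gave 3838, but 615, 2311 and 1566 (without LT tumor replicate 1). LT NTL against control gave 454 calls but 174 with the Xist term, and MYC NTL against control 721 but 1537 with only those groups. The random block for identifier stems was chosen after the data were seen. Low signal limits Klrb1b and Gldn outside the DEN-treated livers, and 3 to 5 arrays a group limit every comparison.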

Other observations

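Other genes shared the patterns of the 6, chosen here after their values were seen. Afp, the fetal liver protein, had all 10 DEN NTL and tumor arrays above the other 25, with means of 4.88 ± 0.10 (SD, n = 5) in DEN control, 6.79 ± 0.25 (SD, n = 5) in NTL and 10.33 ± 2.32 (SD, n = 5) in tumor, where 1 array stood at 6.45. Kif5c, a neuronal kinesin, ran from 4.09 in DEN control through 4.62 in NTL to 7.88 in tumor, and Prom2, a membrane protein of epithelia, from 4.53 through 5.17 to 7.62. Tpst2, a tyrosine sulfotransferase, completed the 9 genes with Csn3 and Tmem54, at 8.83, 9.12 and 9.34.

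Among the 15 genes with DEN control above all other arrays were liver enzymes. Hacl1, of fatty acid alpha-oxidation, had means of 12.59, 11.74 and 10.05 in DEN control, NTL and tumor, and Pck1, of gluconeogenesis, 13.08, 12.71 and 11.95. Unlike Akap17b and Gli2, both stepped down further from NTL to tumor. Their gaps to the other arrays were small, 0.082 and 0.053.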
